A study of Mus musculus with 33 samples.

Results

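Interferon-stimulated genes are the genes that a cell switches on when it senses interferon, and 44 of them were followed here through 33 RNAseq libraries of mouse mammary epithelial cells. They were taken as the rows of the count table whose gene name was on a list of 44 symbols. All 44 were matched, out of 55487 genes in the table, and all 44 were among the 36527 genes that were tested. The question was whether single libraries or whole conditions carry the response.

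The study asked how mammary tumors with and without PTHrP differ. Every mouse carried MMTV-Cre, a recombinase driven in mammary epithelium by the mouse mammary tumor virus promoter, and the ROSA mTmG reporter, in which cells that have seen Cre turn green. WT mice were Pthrp wt/wt and KO mice were Pthrp flox/flox, in which Cre excises a piece of the PTHrP gene, Pthlh, that lies between loxP sites. Tumor mice also carried MMTV-PyMT, an oncogene transgene that drives mammary tumors, and gland mice were tumor-free. The background was FVB, with the floxed allele backcrossed from C57BL/6. The cells were dissociated, kept in culture medium with serum and sorted for GFP, so all libraries come from cells that passed through culture and a sorter. There were 10 libraries of WT tumors (3 each at weeks 6, 8 and 10 and 1 at week 12), 8 of WT glands (2 each at weeks 6, 8, 10 and 12), 9 of KO tumors (3 each at weeks 8, 10 and 12) and 6 of KO glands (2 each at weeks 8, 10 and 12). The titles number the libraries of 1 condition as biological replicates. The libraries fall into 14 conditions of genotype, tissue and age, and the single WT tumor of week 12 entered no comparison.

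Interferons of type I and type III act on the cell surface, and their receptors signal through the kinases Jak1 and Tyk2 to transcription factors that include Stat2. A complex that holds Stat2 and Irf9 binds the interferon-stimulated response element (ISRE) in front of its target genes. Interferon gamma acts through a different element, GAS. The products of the target genes sense foreign RNA and DNA, block viral entry, translation and release, modify proteins with Isg15 and, in the case of Usp18, damp the receptor again. Epithelial cells, mammary ones included, carry the receptors and the sensors themselves.

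Counted reads per library ranged from 28419983 to 130981596. The deepest library was replicate 1 of the WT glands of week 10, which matters below. The share of reads on rRNA genes was at most 0.447% in WT libraries but reached 12% in KO tumors and 18.8% in KO glands. Of 25 pairs of libraries of the same condition none agreed within sampling noise, with chi-square over its degrees of freedom at 37.4 or more. The libraries are bulk RNA of sorted cells, so fewer cells of a responding type and less RNA per cell cannot be told apart.

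The elements that interferon signaling reads could be looked up in the promoters of 34 members, with RefSeq sequence from 250 bases before to 50 after the start of the gene (GRCm38.p6). The ISRE core was searched on both strands as GAAA, any 2 bases and GAAA again. It was found in 18 of the 34 members (52.9%), against 3.99% of 27025 gene symbols with a promoter of the same length. The GAS core, TTCNNNGAA, which reads the same on both strands, was found in 9 of the 34 (26.5%), against 9.55% of all symbols. The stretches below lie upstream of the start and are shown as examples of members with the ISRE core and, for Irf1, with the GAS core. Capitals mark the matches to the core for which a stretch is shown, and copies that overlap run together. The stretch of Bst2 also holds a GAS core, which runs into the first ISRE core and is not marked.

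Isg15: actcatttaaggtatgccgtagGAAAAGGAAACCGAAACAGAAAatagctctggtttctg

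Ifit1: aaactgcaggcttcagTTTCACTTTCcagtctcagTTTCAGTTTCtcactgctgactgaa

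Ifit3: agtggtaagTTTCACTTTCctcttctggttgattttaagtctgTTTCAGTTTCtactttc

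Ifit3b: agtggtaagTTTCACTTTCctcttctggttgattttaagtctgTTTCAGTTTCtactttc

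Rsad2: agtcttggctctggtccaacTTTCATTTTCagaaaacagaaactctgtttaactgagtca

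Oas1a: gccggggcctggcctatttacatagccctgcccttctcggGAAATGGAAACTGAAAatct

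Oas1g: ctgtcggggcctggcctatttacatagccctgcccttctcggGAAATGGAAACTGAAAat

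Bst2: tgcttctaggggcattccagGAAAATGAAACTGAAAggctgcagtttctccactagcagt

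Irf1: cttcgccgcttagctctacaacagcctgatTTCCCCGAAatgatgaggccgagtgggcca

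The stretch of Isg15 lies at chr4:156200859-156200918 (minus strand) and holds 3 overlapping copies of the ISRE core. That of Ifit1 lies at chr19:34640769-34640828 (plus strand) and holds 2 copies in the opposite orientation. Those of Ifit3, at chr19:34583364-34583423 (plus strand), and Ifit3b, at chr19:34607760-34607819 (plus strand), were identical over all 60 bases. The stretch of Rsad2 lies at chr12:26456533-26456592 (minus strand) and holds 1 copy. Oas1a, at chr5:120907526-120907585 (minus strand), and Oas1g, at chr5:120887614-120887673 (minus strand), hold the same 2 overlapping copies next to the start. The stretch of Bst2 lies at chr8:71537563-71537622 (minus strand) and holds 2 copies. Irf1, at chr11:53769894-53769953 (plus strand), has no ISRE core in its window and is shown for its GAS core. Ifit2 also had no ISRE core in the window. In the library where the members were highest, the 18 members with the ISRE core stood at a median of 2.91 (log2, relative to the gene's median library) and the 16 without it at 2.49, with ranges of 1.32 to 4.92 and 0.38 to 4.04. A match is a description of the letters and was not tested for function.

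Single libraries stood far apart, beside differences between whole conditions. Levels are given as CPM (counts scaled to the size of the library by edgeR's TMM method), and the level of a library is the median over the 44 members of log2(CPM + 0.5) minus the gene's median over the 33 libraries. Replicate 1 of the WT glands of week 10 had a level of 2.77 and was the highest of all 33 libraries for 40 of the 44 members. Of the 44, 41 were at least 2-fold above their median there. The other 4 members peaked elsewhere, namely Ifit2 in the WT tumor of week 12, Oas2 in replicate 3 of the WT tumors of week 10, Ifitm3 in replicate 2 of the KO glands of week 10 and Ifi27l2a in replicate 2 of the WT glands of week 8. The same median over all 36527 genes lay between 0.00 and 0.03 in every library. The scaling and the centring on each gene's median keep it near 0, so it does not show that a shift is particular to the members.

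**Figure D1:**
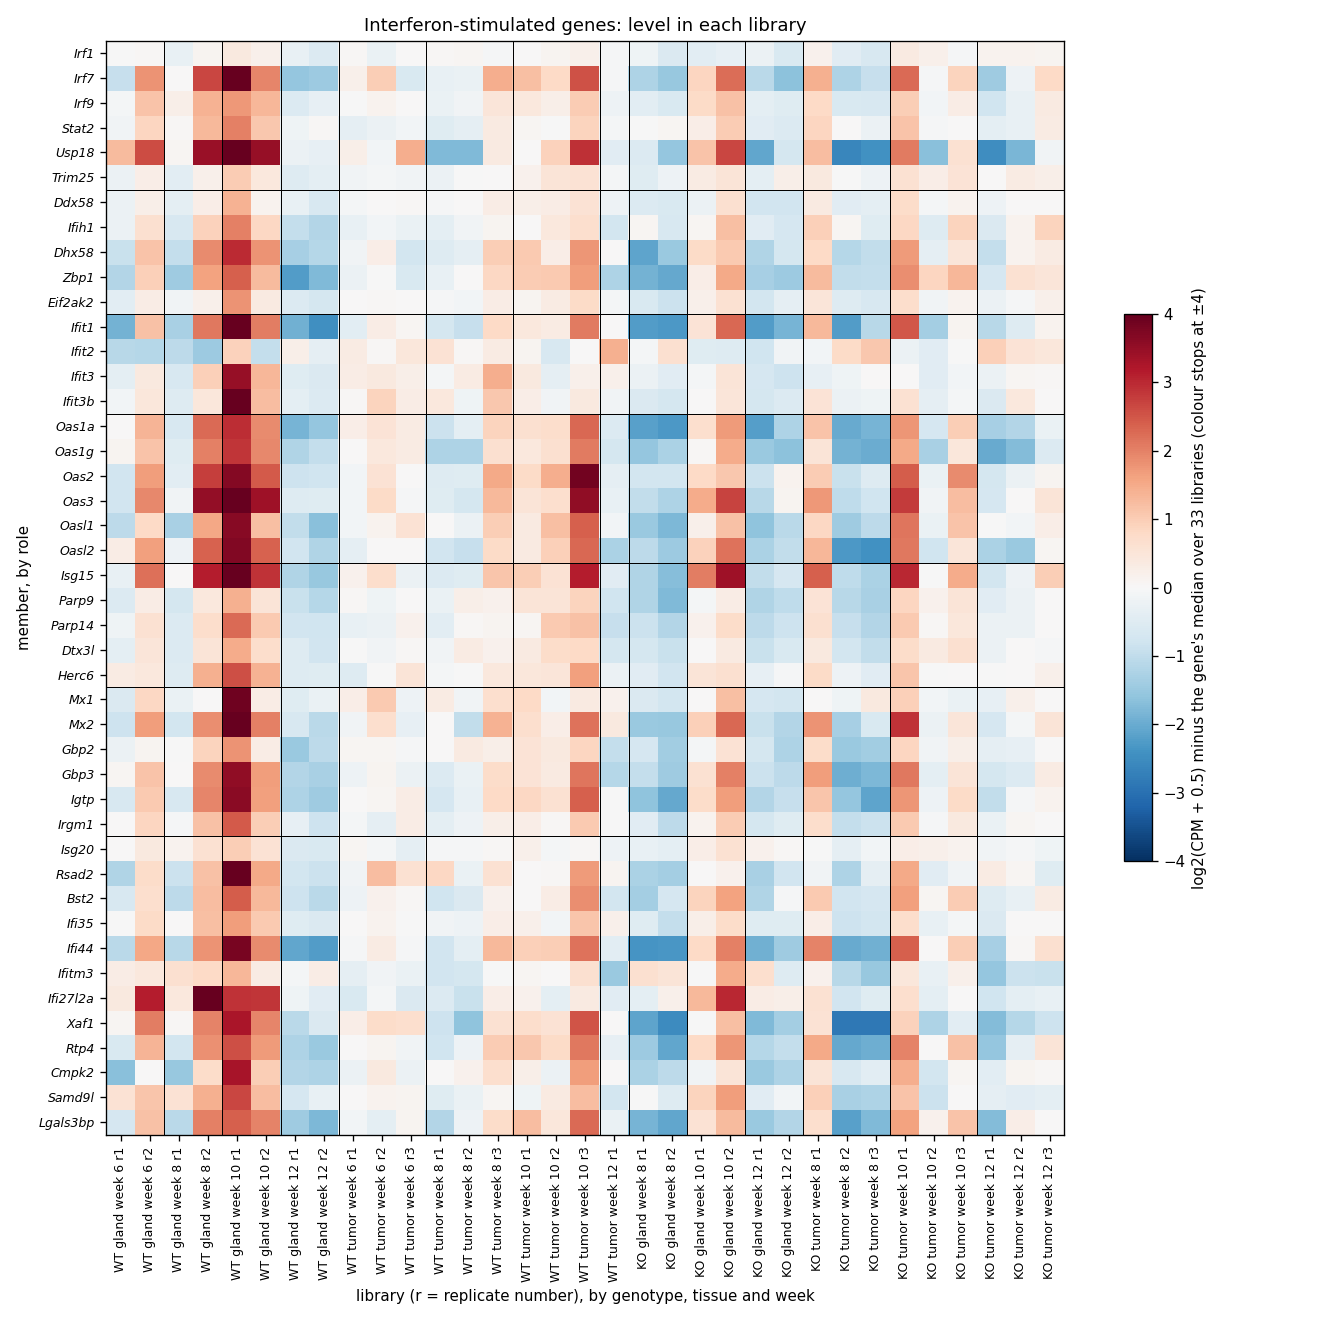
Heat map of the 44 members (rows, by role) in the 33 libraries (columns, by genotype, tissue and week); colour is log2(CPM + 0.5) minus the gene's median over libraries, from blue (lower) to red (higher), and it saturates at 4. The column of WT gland week 10 replicate 1 is red almost throughout, and replicates of a condition often differ in colour, as in WT gland week 8 and KO tumor week 8.

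Further libraries stood above 0.5. Replicate 3 of the WT tumors of week 10 had a level of 1.66, replicate 2 of the WT glands of week 8 of 1.41, replicate 2 of the WT glands of week 10 of 1.32 and replicate 2 of the KO glands of week 10 of 1.19. Replicate 1 of the KO tumors of week 10 followed at 1.1, replicate 2 of the WT glands of week 6 at 0.85, replicate 1 of the KO tumors of week 8 at 0.75 and replicate 3 of the WT tumors of week 8 at 0.60. Several of these libraries had replicates below 0. The WT glands of week 8 were at -0.46 and 1.41, those of week 6 at -0.27 and 0.85, and the KO tumors of week 8 at 0.75, -1.0 and -0.90. The lowest level was -1.10, in replicate 2 of the KO glands of week 8, which was the lowest of all libraries for 14 members.

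**Figure D2:**
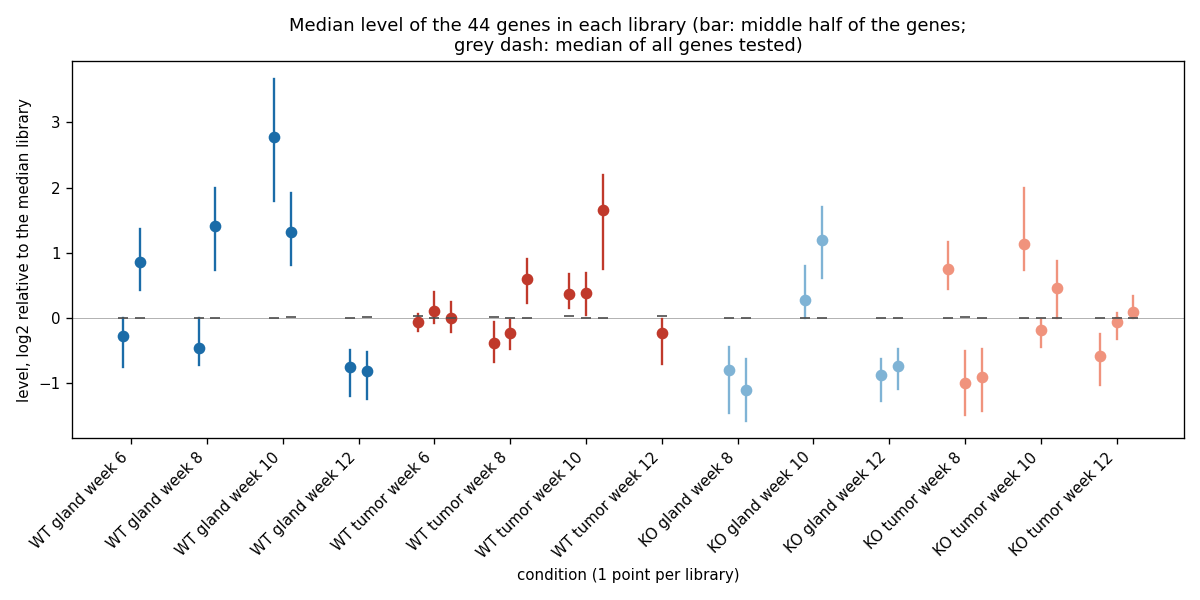
Level of the 44 members in each library (points; log2 relative to the median library), grouped by condition; vertical lines span the interquartile range over the members and grey dashes show the same median over all genes tested. The points of a condition are as far apart as 1.87 in WT glands of week 8 and as close as 0.07 in WT glands of week 12.

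Within a condition the members spread more than other genes did. The range of the library level within a condition ran from 0.07 in the WT glands of week 12 to 1.87 in the WT glands of week 8. In 7 of the 13 conditions with 2 or 3 libraries, 22 or more members differed at least 2-fold between replicates. The SD within conditions was 0.80 on the log2 scale for the median member (0.17 for Isg20 to 1.41 for Usp18). It was 0.23 for the median of the 15562 genes tested with a median of at least 0.3 CPM, a level that all 44 members reach.

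Whole conditions differed as well. Between conditions lay 66.1% of the variance of the median member, from 52.1% for Mx1 to 84.7% for Isg20. It was 49% for the median of all genes tested, low ones included, and 74.4% for their 90th percentile. The share is not adjusted for the number of conditions, so part of it arises without any difference between them. The edgeR quasi-likelihood test for any difference among the 13 replicated conditions called all 44 members at an adjusted p under 0.1, against 21.0% of all genes tested. Their adjusted p ran from 9.11e-05 (Ifit3b) to 0.0442 (Rtp4). Without replicate 1 of the WT glands of week 10 the same test called 34 members, against 21.4% of all genes. The 10 that were lost were Mx1, Mx2, Rsad2, Cmpk2, Ifih1, Gbp3, Herc6, Rtp4, Stat2 and Irgm1, at adjusted p between 0.104 (Rsad2) and 0.229 (Ifih1) in edgeR.

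Glands of week 10 were high in both genotypes. WT glands of week 10 were at levels of 2.77 and 1.32, those of week 12 at -0.75 and -0.82, while those of week 8, at -0.46 and 1.41, overlapped with week 10. KO glands of week 10 were at 0.27 and 1.19, those of week 8 at -0.80 and -1.10 and those of week 12 at -0.88 and -0.73. The KO gland at 1.19 also held the most leukocyte marker RNA, 25.6 CPM over 3 markers beside 2.15 CPM in its replicate, and the part of these cells was not tested. In WT glands both libraries of week 10 were above both of week 12 for 43 of the 44 members, all but Ifit2, against 16.3% of all genes. In KO glands this held for 41 members, all but Ifit2, Irf1 and Ifitm3, against 9.99% of all genes. This pair of ages was picked after the levels were seen, so it is given without a test. Tumors of week 10 were also high, with levels of 0.37, 0.38 and 1.66 in WT and 1.1, -0.18 and 0.46 in KO, but in both genotypes the largest value came from 1 library.

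The members are described by role below, with the values of replicates 1, 2 and, for tumors, 3 in that order. Gene positions are those of Gencode M21 on GRCm38. Among the 6 members for signaling and transcription, Irf1 (interferon regulatory factor 1, ENSMUSG00000018899, chr11:53770014-53778374, plus strand) was the most abundant, with a median of 112 CPM. WT glands held 110 and 116 CPM of Irf1 at week 6, 91.7 and 120 at week 8, 146 and 128 at week 10 and 90.3 and 77.1 at week 12. KO glands held 98.8 and 74.7 CPM at week 8, 83.3 and 88.9 at week 10 and 95.9 and 73.4 at week 12. WT tumors had 117, 93 and 112 CPM at week 6, 117, 117 and 109 at week 8, 113, 122 and 129 at week 10 and 107 at week 12, and KO tumors 127, 81 and 71.9 CPM at week 8, 142, 130 and 108 at week 10 and 124, 123 and 121 at week 12. The highest library was only 2.03 times the lowest. In KO mice all tumors of weeks 10 and 12 lay above the glands of the same age, by a log2 fold change of 0.55 (SE 0.19, edgeR adjusted p = 0.0988) at week 10, which is under the fold limit of 1.5.

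Usp18 (ENSMUSG00000030107, chr6:121245906-121270917, plus strand) encodes a protease that strips Isg15 from proteins and blocks the type I receptor. In WT glands Usp18 was at 18.7 and 48.8 CPM at week 6, 8 and 87 at week 8, 170 and 88.2 at week 10 and 6.37 and 5.94 at week 12. In KO glands it was at 5.01 and 2.26 CPM at week 8, 17.2 and 50.6 at week 10 and 1.38 and 4.43 at week 12. Both glands of week 10 were above both of week 12 in each genotype. WT tumors held 8.97, 6.9 and 21.5 CPM of Usp18 at week 6, 1.87, 1.87 and 9.7 at week 8, 7.53, 14.8 and 59.9 at week 10 and 5.4 at week 12 and KO tumors 18.5, 0.819 and 1.01 CPM at week 8, 33.6, 2 and 11.8 at week 10 and 0.919, 1.77 and 6.72 at week 12. Single tumors stood apart here, such as replicate 1 of the KO tumors of week 8, at 18.5 CPM beside 0.819 and 1.01. Usp18 was called lower in WT tumors than in WT glands at week 8, by a log2 fold change of -3.42 (SE 1.20, edgeR adjusted p = 0.0878), although the tumor at 9.7 CPM was above the gland at 8 CPM.

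Stat2 (ENSMUSG00000040033, chr10:128270559-128292849, plus strand) binds the ISRE together with Irf9. WT glands had 29.9 and 60.2 CPM of Stat2 at week 6, 33.9 and 83 at week 8, 137 and 70.2 at week 10 and 29.1 and 34.4 at week 12 and KO glands 32.5 and 35.2 CPM at week 8, 40.3 and 67.1 at week 10 and 24 and 22.6 at week 12. In WT tumors Stat2 was at 25.9, 27.9 and 30.8 CPM at week 6, 23.7, 25.6 and 42.7 at week 8, 34.6, 32.4 and 62.2 at week 10 and 31.5 at week 12, and in KO tumors at 60.2, 33.1 and 28.1 CPM at week 8, 72.9, 32 and 33.1 at week 10 and 25.3, 26.9 and 41.7 at week 12. At week 10 the 3 WT tumors lay below both WT glands, with a log2 fold change of -1.27 (SE 0.41, edgeR adjusted p = 0.0823). Irf7, which amplifies the response, ranged from 2.51 to 152 CPM over the libraries, Irf9 from 20.7 to 123 CPM and Trim25, which activates RIG-I, from 52.7 to 154 CPM. All 3 were highest in replicate 1 of the WT glands of week 10 and none was called in a comparison by edgeR with the filter or by DESeq2, while edgeR without a filter called Irf7 and Irf9. The fit without a filter called 0.279% to 7.46% of all genes in single comparisons.

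Among the 5 sensors, Ddx58 (ENSMUSG00000040296, chr4:40203773-40239828, minus strand), which encodes the RNA sensor RIG-I, had the highest median CPM (105). Ddx58 was at 89.6 and 123 CPM at week 6, 80.8 and 128 at week 8, 275 and 117 at week 10 and 84.6 and 66.6 at week 12 in WT glands. It was at 72.3 and 68.3 CPM at week 8, 89.3 and 163 at week 10 and 61.2 and 61.9 at week 12 in KO glands. The gland at 275 CPM stood above the next library, a KO tumor at 174 CPM. WT tumors had 99.5, 107 and 109 CPM at week 6, 101, 107 and 128 at week 8, 124, 130 and 156 at week 10 and 91.1 at week 12 and KO tumors 135, 77.1 and 79.8 CPM at week 8, 174, 99.7 and 117 at week 10 and 90.9, 105 and 106 at week 12. Each of the other sensors was also highest in replicate 1 of the WT glands of week 10. Ifih1 (MDA5) ranged from 12.1 to 116 CPM, Dhx58 (LGP2) from 0.864 to 46 CPM, Zbp1, a sensor of Z-form nucleic acid, from 1.51 to 50 CPM and Eif2ak2, the kinase PKR that stops translation on double-stranded RNA, from 32.1 to 205 CPM. No sensor was called in the 11 comparisons between conditions by edgeR with the filter on low counts. DESeq2 called Dhx58 and Zbp1, and edgeR without a filter called all 5, in at least 1 comparison. In single comparisons DESeq2 called 0.203% to 10.7% of all genes and edgeR without a filter 0.279% to 7.46%. The share of all genes called in at least 1 comparison is not given.

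The 4 IFIT genes, whose products bind viral RNA and block its translation, form a cluster on chromosome 19. Ifit1 (ENSMUSG00000034459, chr19:34640871-34650009, plus strand) ran from 0.16 CPM to 109 CPM, the widest span of the members detected in every library (680-fold). Ifit3 (ENSMUSG00000074896, chr19:34583531-34588731, plus strand) and Ifit3b (ENSMUSG00000062488, chr19:34607970-34613401, plus strand) are near copies. Of the 50-base words in Ifit3 transcripts 51.2% are also in Ifit3b, so reads can be split between them or lost, and their values are uncertain. Ifit3 was at 0.181 and 0.656 CPM at week 6, 0.0665 and 1.21 at week 8, 9.35 and 1.73 at week 10 and 0.139 and 0.0914 at week 12 in WT glands and at 0.255 and 0.144 CPM at week 8, 0.341 and 0.76 at week 10 and 0.0554 and 0 at week 12 in KO glands. It was at 0.58, 0.666 and 0.528 CPM at week 6, 0.331, 0.624 and 1.91 at week 8, 0.653, 0.189 and 0.509 at week 10 and 0.511 at week 12 in WT tumors and at 0.202, 0.294 and 0.386 CPM at week 8, 0.391, 0.154 and 0.316 at week 10 and 0.262, 0.443 and 0.416 at week 12 in KO tumors. The listed 0 is a count of 0 reads, which allows up to 0.148 CPM. Ifit3 exceeded 1 CPM in 4 libraries, both WT glands of week 10, replicate 2 of the WT glands of week 8 and replicate 3 of the WT tumors of week 8. Ifit3b was at 0.249 and 0.601 CPM at week 6, 0.0665 and 0.606 at week 8, 13.6 and 1.4 at week 10 and 0.119 and 0.0457 at week 12 in WT glands and at 0.0393 and 0 CPM at week 8, 0.307 and 0.624 at week 10 and 0 and 0.0492 at week 12 in KO glands. It was at 0.343, 0.99 and 0.499 CPM at week 6, 0.584, 0.222 and 1.19 at week 8, 0.461, 0.236 and 0.549 at week 10 and 0.236 at week 12 in WT tumors and at 0.678, 0.189 and 0.217 CPM at week 8, 0.741, 0.128 and 0.258 at week 10 and 0.0437, 0.57 and 0.319 at week 12 in KO tumors. The zeros of Ifit3b allow up to 0.144 CPM at week 8 and 0.0831 CPM at week 12. In WT mice of week 10 the tumors lay below the glands without overlap for both genes. The log2 fold change was -3.61 (SE 0.79, edgeR adjusted p = 0.00597) for Ifit3 and -4.16 (SE 0.93, edgeR adjusted p = 0.00688) for Ifit3b.

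Ifit2 (ENSMUSG00000045932, chr19:34550694-34576419, plus strand), from the same cluster, rose in WT tumors of weeks 6 and 8. WT glands held 3.78 and 3.66 CPM of Ifit2 at week 6, 3.94 and 2.87 at week 8, 16.7 and 4.26 at week 10 and 10.2 and 6.63 at week 12. KO glands held 8.19 and 13.9 CPM at week 8, 6.03 and 5.94 at week 10 and 4.79 and 7.73 at week 12. WT tumors had 11, 9.06 and 11.9 CPM at week 6, 13.1, 8.96 and 10.9 at week 8, 9.33, 5.36 and 8.65 at week 10 and 23.9 at week 12 and KO tumors 8.01, 14.8 and 18.9 CPM at week 8, 7.23, 6.25 and 8.61 at week 10 and 17.1, 12.9 and 12 at week 12. Every WT tumor of weeks 6 and 8 was above every WT gland of these ages. Ifit2 rose in WT tumors at week 6 by a log2 fold change of 1.52 (SE 0.42, edgeR adjusted p = 0.0356) and at week 8 by 1.69 (SE 0.42, edgeR adjusted p = 0.0104). It was lowest in replicate 2 of the WT glands of week 8, a library in which most members were high. In KO tumors of week 8 the replicate that was highest for most members had the least Ifit2.

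The 6 OAS genes encode enzymes and relatives that answer double-stranded RNA. Oasl2 (ENSMUSG00000029561, chr5:114896936-114912234, plus strand) had the highest median, 12 CPM. In WT glands Oasl2 was at 15.4 and 39.3 CPM at week 6, 10.8 and 66 at week 8, 165 and 65.3 at week 10 and 7.03 and 5.12 at week 12. In KO glands it was at 5.75 and 4.19 CPM at week 8, 24 and 57.4 at week 10 and 4.85 and 5.96 at week 12. WT tumors had 9.56, 12 and 12.6 CPM of Oasl2 at week 6, 7.04, 6.32 and 21.1 at week 8, 16, 24.5 and 63.1 at week 10 and 4.85 at week 12, and KO tumors had 32.1, 2.12 and 1.88 CPM at week 8, 55.2, 6.84 and 17.6 at week 10 and 4.84, 4.14 and 13.1 at week 12. Replicate 1 of the KO tumors of week 8 was 3.64 above its condition's median on the log2 scale. Oas1a ranged from 1.01 to 57.3 CPM, Oas1g from 0.146 to 18.7, Oas3 from 0.0962 to 38 and Oasl1 from 0.385 to 38.2, with the highest value of each in replicate 1 of the WT glands of week 10. Oas2 ranged from 0.042 to 14 CPM. Oas1a and Oas1g share 57.6% of the 50-base words of Oas1a, so the split between them is uncertain. No OAS gene was called in a comparison by edgeR with the filter on low counts, while DESeq2 called 4 of the 6 and edgeR without a filter all 6 in at least 1 comparison. Of all genes, DESeq2 called 0.203% to 10.7% and edgeR without a filter 0.279% to 7.46% in single comparisons.

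Isg15, a small ubiquitin-like protein that is attached to other proteins, ranged from 0.674 to 100 CPM (ENSMUSG00000035692, chr4:156199424-156200818, minus strand). Isg15 was at 2.6 and 17.1 CPM at week 6, 3.34 and 33.3 at week 8, 100 and 27.8 at week 10 and 1.17 and 0.846 at week 12 in WT glands. It was at 1.18 and 0.674 CPM at week 8, 15.5 and 39.6 at week 10 and 1.47 and 1.92 at week 12 in KO glands. Both glands of week 10 were far above both of week 12 in each genotype. In WT tumors Isg15 was at 3.8, 5.75 and 2.79 CPM at week 6, 2.14, 2.28 and 7.76 at week 8, 7.01, 5.2 and 33.6 at week 10 and 2.31 at week 12, and in KO tumors at 19.7, 1.41 and 1.08 CPM at week 8, 31, 3.3 and 10.2 at week 10 and 1.78, 2.83 and 7.09 at week 12. Parp9 (ENSMUSG00000022906, chr16:35938470-35972605, plus strand), which acts with the ubiquitin ligase Dtx3l, had the highest median of its group, 92.4 CPM. WT glands had 62.7 and 114 CPM of Parp9 at week 6, 56.6 and 124 at week 8, 246 and 134 at week 10 and 50 and 41.3 at week 12 and KO glands 39.6 and 26.5 CPM at week 8, 86.7 and 113 at week 10 and 40.2 and 45.7 at week 12. WT tumors had 96.1, 82.8 and 94.2 CPM at week 6, 77.2, 108 and 104 at week 8, 133, 132 and 172 at week 10 and 52.3 at week 12, and KO tumors 135, 42.2 and 37 CPM at week 8, 168, 104 and 132 at week 10 and 68.2, 78.5 and 92.4 at week 12. The glands of weeks 8 and 12 in KO mice stayed under 50 CPM, while both glands of week 10 were above 80 CPM. The ends of Parp9 and Dtx3l overlap on opposite strands and whether the counting used strand is not stated, so reads there cannot be assigned. Dtx3l ranged from 39.5 to 217 CPM, Parp14 from 34.2 to 373 and Herc6, the ligase for Isg15 in mice, from 3.42 to 39. No gene of the group was called in a comparison by edgeR with the filter, while DESeq2 and edgeR without a filter each called all 5 in at least 1 comparison. Their shares of all genes in single comparisons were 0.203% to 10.7% and 0.279% to 7.46%.

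**Figure D3:**
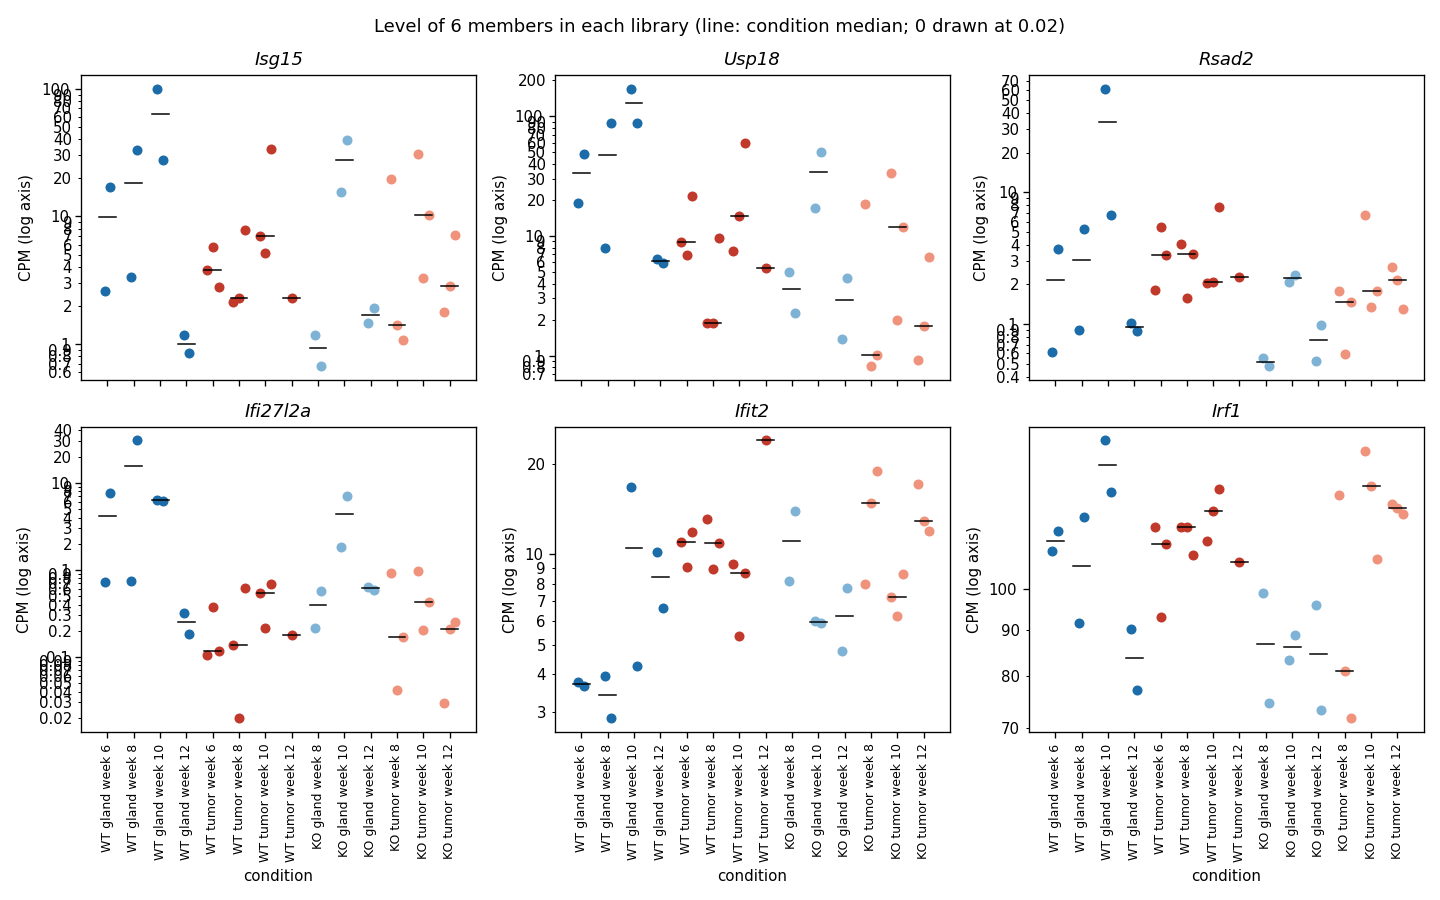
CPM (log axis) of Isg15, Usp18, Rsad2, Ifi27l2a, Ifit2 and Irf1 in each library by condition; points are libraries, short lines are condition medians, dark blue is WT gland, red WT tumor, light blue KO gland and light red KO tumor, and a count of 0 is drawn at 0.02. Isg15 and Usp18 are high in glands of week 10 and in single tumors, Ifit2 is higher in WT tumors than WT glands at weeks 6 and 8, and Irf1 stays between 71.9 and 146 CPM.

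The next group holds the dynamin-like Mx proteins, which act on viruses inside the cell, and GTPases of the GBP and IRG families, which act on membranes around intracellular microbes. Mx1 (ENSMUSG00000000386, chr16:97447035-97462907, minus strand), an inhibitor of influenza virus, is known to be defective in most laboratory mouse strains. Mx1 was at 0.0679 and 0.984 CPM at week 6, 0.199 and 0.344 at week 8, 12 and 0.533 at week 10 and 0.0995 and 0.206 at week 12 in WT glands and 0.0589 and 0 CPM at week 8, 0.341 and 1.44 at week 10 and 0.0277 and 0 at week 12 in KO glands. WT tumors had 0.501, 1.25 and 0.235 CPM at week 6, 0.558, 0.262 and 0.829 at week 8, 0.979, 0.283 and 0.59 at week 10 and 0.452 at week 12 and KO tumors 0.345, 0.252 and 0.603 CPM at week 8, 1.1, 0.282 and 0.201 at week 10 and 0.175, 0.465 and 0.361 at week 12. The zeros allow up to 0.144 CPM at week 8 and 0.148 CPM at week 12. Mx1 was called lower in WT tumors than glands of week 10, with a log2 fold change of -3.34 (SE 0.94, edgeR adjusted p = 0.0365). That call rests on the gland at 12 CPM. The other gland, at 0.533 CPM, lay among the 3 tumors, and without the first gland the fold change was 0.22. Irgm1 (ENSMUSG00000046879, chr11:48861968-48871683, minus strand) had the highest median of the group, 37.8 CPM. In WT glands it was at 37.8 and 68.7 CPM at week 6, 36.6 and 85.3 at week 8, 208 and 74.4 at week 10 and 29.7 and 21 at week 12. In KO glands Irgm1 was at 27.4 and 18 CPM at week 8, 41.9 and 77 at week 10 and 22.9 and 27.2 at week 12. WT tumors held 35.6, 29.1 and 46.5 CPM of it at week 6, 28.5, 32.6 and 44.4 at week 8, 45.1, 38.9 and 79.4 at week 10 and 37.2 at week 12 and KO tumors 62.2, 19.5 and 20.4 CPM at week 8, 79.4, 36.5 and 49.1 at week 10 and 31.5, 40 and 38.5 at week 12. At week 10 the log2 fold change of WT tumors over glands was -1.37 (SE 0.47, edgeR adjusted p = 0.0984), although the tumor at 79.4 CPM was above the gland at 74.4 CPM.

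Gbp3 (ENSMUSG00000028268, chr3:142560026-142573209, plus strand), a guanylate-binding protein, was among the members that differed most from their replicates. WT glands had 9.05 and 19 CPM of Gbp3 at week 6, 8.46 and 32.5 at week 8, 105 and 28.1 at week 10 and 3.52 and 3.11 at week 12. KO glands had 4.12 and 2.84 CPM at week 8, 13.1 and 35.4 at week 10 and 4.46 and 3.79 at week 12. WT tumors were at 7.25, 9.1 and 7.1 CPM at week 6, 5.62, 6.93 and 14.4 at week 8, 12.5, 11 and 38.7 at week 10 and 3.53 at week 12 and KO tumors at 28, 1.83 and 2.05 CPM at week 8, 38.1, 6.27 and 12 at week 10 and 5.02, 5.62 and 10.7 at week 12. The value of 28 CPM was 3.48 above the condition's median on the log2 scale. Gbp2 ranged from 9.52 to 97.2 CPM, Igtp from 1.28 to 92.7 and Mx2 from 0.0962 to 43, each highest in replicate 1 of the WT glands of week 10.

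The last 12 members are antiviral or induced genes of several kinds. Ifitm3 (ENSMUSG00000025492, chr7:141009586-141010770, minus strand), which blocks the entry of viruses through endosomes, had the highest median of all 44 members, 170 CPM. Per kilobase of exon it was also the highest, at 250 CPM per kb against 28.2 for Irf1. WT glands held 208 and 229 CPM of Ifitm3 at week 6, 265 and 294 at week 8, 424 and 215 at week 10 and 162 and 208 at week 12 and KO glands 267 and 242 CPM at week 8, 168 and 472 at week 10 and 273 and 119 at week 12. WT tumors held 133, 155 and 142 CPM at week 6, 98.5, 105 and 166 at week 8, 178, 170 and 262 at week 10 and 60.4 at week 12, and KO tumors 190, 78.1 and 59.4 CPM at week 8, 232, 137 and 196 at week 10 and 57, 92.5 and 90.8 at week 12. WT tumors at week 8, and KO tumors at week 12, lay below the glands of their age without overlap. Ifitm3 fell there by log2 fold changes of -1.18 (SE 0.41, edgeR adjusted p = 0.0863) and -1.29 (SE 0.41, edgeR adjusted p = 0.0747).

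Ifi27l2a (ENSMUSG00000079017, chr12:103442167-103443680, minus strand), a small interferon-induced gene, was called in more comparisons than any other member. WT glands had 0.724 and 7.69 CPM of Ifi27l2a at week 6, 0.753 and 30.7 at week 8, 6.37 and 6.22 at week 10 and 0.319 and 0.183 at week 12. KO glands had 0.216 and 0.577 CPM at week 8, 1.81 and 7.03 at week 10 and 0.637 and 0.591 at week 12. In WT tumors it was at 0.106, 0.376 and 0.117 CPM at week 6, 0.139, 0 and 0.617 at week 8, 0.538, 0.213 and 0.692 at week 10 and 0.177 at week 12 and in KO tumors at 0.915, 0.042 and 0.169 CPM at week 8, 0.968, 0.205 and 0.43 at week 10 and 0.0292, 0.211 and 0.25 at week 12. The count of 0 in a WT tumor of week 8 allows up to 0.0604 CPM. WT tumors were below WT glands without overlap at all 3 ages. The log2 fold changes were -4.37 (SE 1.23, edgeR adjusted p = 0.041) at week 6, -6.02 (SE 1.27, edgeR adjusted p = 0.00253) at week 8 and -3.69 (SE 1.16, edgeR adjusted p = 0.0669) at week 10. Those of weeks 6 and 8 were much smaller without replicate 2 of the glands, as given in the last section. The highest value, 30.7 CPM, came from the library with the most fibroblast marker RNA, where 6 markers summed to 729 CPM beside 33.2 CPM in its replicate, and the part of these cells in it was not tested.

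Rsad2 (ENSMUSG00000020641, chr12:26442746-26456452, minus strand) encodes viperin, an antiviral enzyme. WT glands had 0.611 and 3.72 CPM of Rsad2 at week 6, 0.908 and 5.25 at week 8, 61.2 and 6.78 at week 10 and 1.02 and 0.891 at week 12 and KO glands 0.55 and 0.481 CPM at week 8, 2.08 and 2.36 at week 10 and 0.526 and 0.985 at week 12. WT tumors had 1.82, 5.45 and 3.37 CPM at week 6, 4.03, 1.59 and 3.38 at week 8, 2.04, 2.1 and 7.79 at week 10 and 2.26 at week 12, and KO tumors 1.78, 0.588 and 1.47 CPM at week 8, 6.69, 1.36 and 1.78 at week 10 and 2.71, 2.15 and 1.3 at week 12. A single gland at 61.2 CPM stood far above the rest, the next being at 7.79 CPM. Rsad2 was called lower in WT tumors than in WT glands of week 10, with a log2 fold change of -3.10 (SE 0.82, edgeR adjusted p = 0.0253), and higher in WT than in KO glands, with 2.29 (SE 0.58, edgeR adjusted p = 0.0707). At week 10 the tumor at 7.79 CPM was above the gland at 6.78 CPM. In the glands of week 12 the KO gland at 0.985 CPM was above the WT gland at 0.891 CPM.

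Xaf1 (ENSMUSG00000040483, chr11:72301629-72313733, plus strand), a pro-apoptotic interferon target, was also called higher in WT than in KO glands. WT glands had 18.4 and 73.5 CPM of Xaf1 at week 6, 17.7 and 69.6 at week 8, 171 and 67.7 at week 10 and 7.82 and 11.4 at week 12. KO glands had 3.57 and 2.6 CPM at week 8, 17 and 40.1 at week 10 and 4.74 and 6.4 at week 12. At each of weeks 8, 10 and 12 both WT glands lay above both KO glands, with a log2 fold change of 2.22 (SE 0.59, edgeR adjusted p = 0.0867). The lack of overlap was not particular to Xaf1, as it held for Usp18 too, which was not called there. WT tumors were at 21.1, 28.7 and 27.5 CPM at week 6, 9.44, 5.36 and 26.3 at week 8, 28.3, 25.7 and 101 at week 10 and 17.2 at week 12 and KO tumors at 26, 1.95 and 1.95 CPM at week 8, 33.3, 7.07 and 12.7 at week 10 and 4.81, 7.56 and 9.46 at week 12. In tumors the genotypes overlapped.

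Isg20 (ENSMUSG00000039236, chr7:78913424-78920396, plus strand), an RNA exonuclease, was the member with the tightest replicates. WT glands were at 6.38 and 8.57 CPM of Isg20 at week 6, 7.04 and 10 at week 8, 12.9 and 9.75 at week 10 and 4.12 and 4 at week 12 and KO glands at 5.08 and 4.76 CPM at week 8, 7.77 and 9.9 at week 10 and 7.31 and 6.7 at week 12. WT tumors were at 6.82, 6.08 and 4.9 CPM at week 6, 6.09, 6.12 and 6.57 at week 8, 7.41, 6.02 and 6.7 at week 10 and 5.49 at week 12, and KO tumors at 6.26, 4.89 and 5.93 CPM at week 8, 7.86, 7.32 and 7.06 at week 10 and 5.72, 6.17 and 5.66 at week 12. Both WT glands of week 10 lay above the 3 tumors, and Isg20 fell there by a log2 fold change of -0.76 (SE 0.19, edgeR adjusted p = 0.0189).

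Ifi44 (ENSMUSG00000028037, chr3:151730922-151749960, minus strand), an interferon-induced gene that restrains viral growth, had the single library farthest from its condition's median of all members. WT glands had 3.94 and 27 CPM of Ifi44 at week 6, 3.81 and 32.2 at week 8, 130 and 34.1 at week 10 and 1.71 and 1.46 at week 12. KO glands had 1.33 and 1.35 CPM at week 8, 15.8 and 37.8 at week 10 and 1.97 and 3 at week 12. In both genotypes the glands of week 12 were at or below 3 CPM. WT tumors were at 8.49, 11.3 and 8.57 CPM at week 6, 5.02, 6.69 and 22.4 at week 8, 17.5, 17.8 and 41.6 at week 10 and 6.53 at week 12, and KO tumors at 36.3, 1.81 and 1.95 CPM at week 8, 48.9, 8.86 and 17.9 at week 10 and 3.25, 9.29 and 14 at week 12. Replicate 1 of the KO tumors of week 8 was 3.91 above its condition's median on the log2 scale. Rtp4 (ENSMUSG00000033355, chr16:23520291-23614222, plus strand), a receptor transporter protein, followed Ifi44. WT glands had 8.85 and 36.5 CPM of Rtp4 at week 6, 8.22 and 50.4 at week 8, 86 and 45.8 at week 10 and 5.59 and 4.69 at week 12, and KO glands had 4.77 and 2.89 CPM at week 8, 24.4 and 48.1 at week 10 and 5.98 and 6.89 at week 12. WT tumors were at 13.9, 14.9 and 12.5 CPM at week 6, 7.8, 12.1 and 28.5 at week 8, 29.7, 24.2 and 61.6 at week 10 and 11 at week 12 and KO tumors at 41, 2.94 and 3.18 CPM at week 8, 56, 14.1 and 32 at week 10 and 4.36, 10.7 and 20 at week 12. The same tumor stood 3.50 above its condition's median. Of the members not yet given, Bst2 (tetherin, which holds virus at the cell surface) ranged from 7.36 to 108 CPM, Ifi35 from 12.7 to 80.9, Cmpk2 from 0.385 to 27.2, Samd9l from 14.2 to 229 and Lgals3bp from 4.47 to 117. Each was highest in replicate 1 of the WT glands of week 10. None was called by edgeR with the filter, while DESeq2 called Ifi35, Cmpk2, Samd9l and Lgals3bp in at least 1 comparison. DESeq2 called 0.203% to 10.7% of all genes in single comparisons.

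Tumors were then compared with tumor-free glands of the same genotype and age. A gene was called when its fold change was over 1.5 and its Benjamini-Hochberg adjusted p was under 0.1 in edgeR's quasi-likelihood test over all 36527 genes. In WT mice of week 6, 2 of 44 members were called (5.86% of all genes were), Ifit2 higher and Ifi27l2a lower, with a median log2 fold change of the members of -0.49 and 34 of 44 negative. At week 8, 4 were called (9.19% of all genes), Ifit2 higher and Ifi27l2a, Ifitm3 and Usp18 lower, with a median of -0.79. At week 10, 8 were called (6.13% of all genes), all lower (3.67% of all genes were lower), namely Ifit3, Ifit3b, Isg20, Rsad2, Mx1, Ifi27l2a, Stat2 and Irgm1. All 44 members were negative at week 10, with a median of -1.24. The median of all genes tested was 0.00 at the 3 ages. Without a filter on low counts, edgeR called 2 members at week 6 (5.79% of all genes), 11 at week 8 (7.46%) and 22 at week 10 (5.41%).

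In KO mice the medians lay on the other side at weeks 8 and 12. At week 8 no member was called (2.49% of all genes were), though 43 of 44 were positive with a median of 1.22, and 12 had an unadjusted p under 0.05 in edgeR. Of all genes tested, 52.9% were positive with a median of 0.04, and 10.6% had an unadjusted p under 0.05. DESeq2 called 9 members and 4.64% of all genes, and edgeR without a filter 12 members and 3.26%. The lowest adjusted p in edgeR was 0.165, for Zbp1 (log2 fold change 2.42, SE 0.82). At week 10 no member was called (5.66% of all genes) and the median was -0.22. In edgeR 2 members had an unadjusted p under 0.05 (15.1% of all genes), and DESeq2 called 0 (7.71% of all genes). At week 12, 1 member was called (6.11% of all genes), Ifitm3, which was lower, while 40 of 44 were positive with a median of 0.78. DESeq2 called 6 members and 7.95% of all genes at that age, and edgeR without a filter 9 members and 5.39%.

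**Figure D4:**
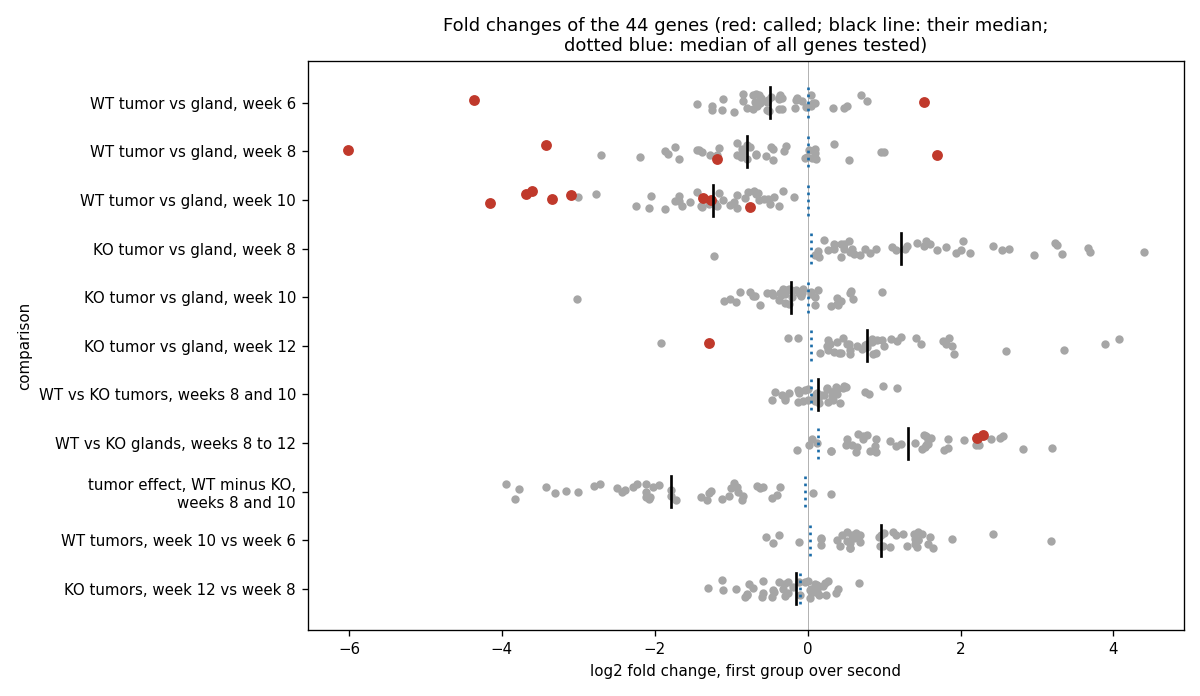
Log2 fold change (horizontal axis) of each of the 44 members in the 11 comparisons (rows); red points are called, grey points are not, black lines are medians of the members and dotted blue lines medians of all genes tested. WT tumors against glands of week 10 lie wholly below 0 and KO tumors against glands of week 8 lie above 0 for 43 of 44 members.

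Single libraries set much of these differences. Without replicate 1 of the WT glands of week 10, the comparison of WT tumors and glands at that age called 0 members in place of 8, with a median of -0.43 and 10 members positive. The log2 fold change of Mx1 went from -3.34 to 0.22 and that of Rsad2 from -3.10 to -0.77, while that of Ifi27l2a was -3.69 before and -3.68 after, with its call lost. Without replicate 2 of those glands it called 11 members with a median of -1.68. It called 4 without replicate 1 or without replicate 2 of the tumors. Without replicate 2 of the WT glands of week 8, the comparison at week 8 called 1 member in place of 4, and the median turned from -0.79 to 0.63. Without replicate 1 of those glands it called 6, with a median of -1.38. It called 2 without replicate 1 or replicate 2 of the tumors. Without replicate 2 of the WT glands of week 6, the comparison at week 6 called 0 in place of 2, and the median turned from -0.49 to 0.46. It called 1 without replicate 1 of the glands, with a median of -0.93, and also 1 without replicate 1 or 3 of the tumors. In KO mice of week 8 the median went from 1.22 to 0.16 without replicate 1 of the tumors, with 1 member called, and 1 was also called without either WT gland of week 8. At week 10 it turned from -0.22 to 0.37 without replicate 2 of the glands and to 0.11 without replicate 2 of the tumors. There 1 member was called without replicate 3 of the tumors or without either WT gland of week 8. At week 12 it stayed between 0.50 and 1.02, but the call of Ifitm3 was lost without any 1 of the 3 tumors. The count was 2 without any 1 of the WT glands of weeks 8 and 10, and 3 without replicate 1 of the KO tumors of week 8. Where a condition was left with 1 library, that library was taken to vary like those of the other conditions.

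**Figure D5:**
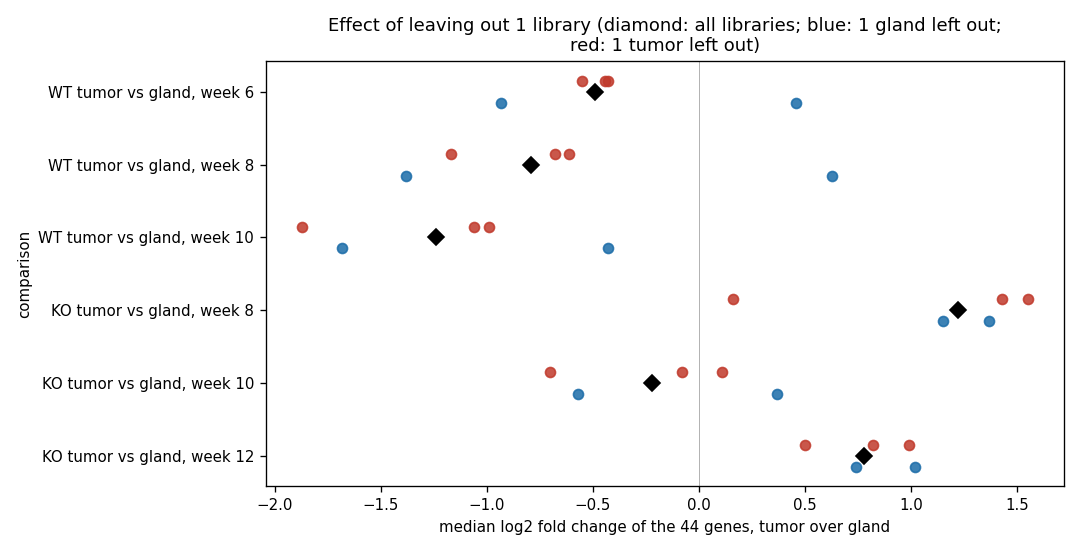
Median log2 fold change of the 44 members, tumor over gland (horizontal axis), in the 6 comparisons of tumors with glands; diamonds use all libraries, blue points leave out 1 gland and red points leave out 1 tumor. In WT mice of weeks 6 and 8 leaving out 1 gland moves the median across 0, and in KO mice of week 12 every point stays above 0.50 or at it.

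The genotypes were compared directly. WT against KO tumors of weeks 8 and 10 gave no called member (0.512% of all genes were called). The median log2 fold change, WT over KO, was 0.14. In edgeR 1 member had an unadjusted p under 0.05 (Ifit3, 1.17, SE 0.54), against 10.9% of all genes. DESeq2 called 0 members and 1.82% of all genes. Without replicate 1 of the KO tumors of week 8, 3 members were called and the median fold change was 0.78 with 40 of 44 positive. That median was -0.03 without replicate 3 of the WT tumors of week 8 and -0.04 without replicate 3 of the WT tumors of week 10. In glands of weeks 8, 10 and 12, 2 members were called (0.906% of all genes), Rsad2 and Xaf1, both higher in WT (0.504% of all genes were higher). Of the 44 members 43 were positive, with a median of 1.31 against 0.14 for all genes tested, and 34 had an unadjusted p under 0.05 against 12.4% of all genes. The positive members included all 6 of signaling, all 5 sensors and all 6 OAS genes. The exception was Ifit2, at -0.14 (SE 0.25).

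That difference between glands depended on the way it was computed. DESeq2 called 22 members and 2.03% of all genes, and edgeR without a filter on low counts called 31 members and 1.46% of all genes. With the rRNA share of each library as a covariate, edgeR called 0 members and the median was 0.37. The share of all genes called in that fit is not given, so the count cannot be set against it. In the same glands the rRNA share was 0.00296% to 0.261% in WT and 0.0224% to 18.8% in KO, which is the range behind that fit. All shares above 0.261% were in KO glands, so genotype and rRNA share cannot be told apart there. Leaving out 1 library gave between 0 and 12 members called. The count was 12 without replicate 1 of the WT glands of week 8 and 7 without replicate 1 of the KO tumors of week 8. It was 1 without replicate 2 of the WT glands of week 10, replicate 1 of the KO glands of week 12, replicate 1 of the WT tumors of week 6 or of week 8, or replicate 3 of the KO tumors of week 10. It was 0 without any 1 of the other glands of weeks 8 to 12. The median stayed between 0.63 and 1.56.

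The difference of the tumor effect, WT minus KO at weeks 8 and 10, had no called member (0.00548% of all genes). Its median was -1.79 (-0.85 without replicate 2 of the WT glands of week 8, -0.95 without replicate 1 of the KO tumors of week 8, -1.20 without replicate 1 of the WT glands of week 10), 42 of 44 members were negative and 32 had an unadjusted p under 0.05 in edgeR, against 5.58% of all genes. DESeq2 called 0 of the members (0.203% of all genes) and edgeR without a filter on low counts called 12 (0.279% of all genes). The lowest edgeR adjusted p was 0.813 and the median was -0.84 with the rRNA share as a covariate. This contrast uses the same gland libraries as the comparisons above. Between stages, WT tumors of week 10 against week 6 had no called member (0.0110% of all genes), a median of 0.96 and 7 members with an unadjusted p under 0.05 (8.55% of all genes), the largest being Oas2 at 3.18 (SE 1.25). DESeq2 called 0 members there (0.693% of all genes), and edgeR without a filter called 4 (0.889% of all genes). Without replicate 3 of the WT tumors of week 10, where Oas2 peaked, that median was 0.43. KO tumors of week 12 against week 8 had none either (0% of all genes), with 0 called by DESeq2 (0.342% of all genes). In edgeR 1 member had an unadjusted p under 0.05 (Irf1, 0.40, SE 0.16), against 7.88% of all genes, and the median was -0.15. Without replicate 1 of the KO tumors of week 8 that median was 0.95, with 1 member called, and without replicate 1 of the KO tumors of week 12 it was 0.05.

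The genes upstream of the members did not all move with them. Of 20 genes of interferon ligands all were in the table, 7 had enough reads to be tested, and together they held 189 reads over all 33 libraries, at most 0.263 CPM in any library. None was called in a comparison or in the test of any difference among conditions. Of 13 genes of receptors and JAK-STAT signaling, 10 were called in the test of any difference (21.0% of all genes were). Ifnar2, a subunit of the type I receptor, was called higher in tumors than glands in all 6 comparisons. Its log2 fold change was 0.59 (SE 0.15) in KO mice of week 8, 0.72 (SE 0.15) in WT mice of week 6, 0.82 (SE 0.15) in WT mice of week 8 and in KO mice of week 12, 0.85 (SE 0.15) in WT mice of week 10 and 0.99 (SE 0.15) in KO mice of week 10. Jak2 was lower in WT tumors at all 3 ages (-0.76, -0.60 and -1.10). In WT mice Stat3 was higher in tumors of weeks 8 and 10 (0.60 at both ages), Ifngr1 and Il10rb at week 10 (0.63 and 0.66), and Socs1, a feedback inhibitor, was lower at week 8 (-1.56). In KO mice Stat3 (0.69) and Il10rb (0.61) were higher in tumors of week 10, Ifngr2 in those of week 12 (0.67) and Ifnlr1 in those of weeks 10 and 12 (0.82 and 0.87).

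Of 14 genes of nucleic acid sensing in the table, 6 were called in the test of any difference, against the same 21.0% of all genes. Tlr3, the endosomal sensor of double-stranded RNA, was higher in WT tumors of weeks 6 and 8 by log2 fold changes of 1.26 (SE 0.29) and 1.42 (SE 0.30), and in KO tumors of weeks 8, 10 and 12 by 1.07, 0.87 and 1.06 (SE 0.29 each). It was at 76.7 CPM in the WT tumor of week 12, the library in which Ifit2 was highest. Adar, which edits double-stranded RNA, was lower in WT tumors of week 10 (-1.0, SE 0.27). Irf8 was lower in WT tumors of weeks 8 and 10 and in KO tumors of week 10 (-2.10, -2.19 and -2.39), and Tlr7 in WT tumors of week 8 (-3.85, SE 1.02). Irf8 was highest in replicate 2 of the KO glands of week 10 (4.56 CPM) and Tlr7 in replicate 2 of the WT glands of week 8 (1.78 CPM), the libraries with the 2 highest sums of the leukocyte markers. The median log2 fold change of those 3 markers was -2.50 in WT mice of week 8, -1.86 in WT mice of week 10 and -2.69 in KO mice of week 10, and their part in these calls was not tested.

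Other cells and library quality moved with some of the high libraries. The 6 luminal markers summed to between 4368 and 10940 CPM and the 6 basal markers to between 921 and 13901 CPM, and both lists were detected in every library. The basal markers were lower in tumors than glands by median log2 fold changes of -1.49 to -2.40 in the 6 comparisons, with 1 to 5 of the 6 called lower, while the medians of the luminal markers lay between -0.27 and 0.13. The fibroblast markers had a median of -2.0, -3.37 and 0.80 in WT mice of weeks 6, 8 and 10 and of 0.91, -0.55 and 0.48 in KO mice of weeks 8, 10 and 12, with 3 of 6 called lower in WT mice of week 8 and none called in the others. Between WT and KO glands their median was 1.12, with none called. The 3 leukocyte markers summed to at most 5.14 CPM except in replicate 2 of the WT glands of week 8 (10.5 CPM) and replicate 2 of the KO glands of week 10 (25.6 CPM), which were at levels of 1.41 and 1.19. In replicate 1 of the WT glands of week 10 they summed to 3.2 CPM, and the 9 lymphocyte and NK markers to 0.647 CPM. The lymphocyte and NK sum was 13.2 CPM in replicate 2 of the KO glands of week 10 and at most 1.23 CPM elsewhere. The 4 markers of plasmacytoid dendritic cells, which make interferon, summed to between 0 and 1.9 CPM, highest in that same KO gland, and the 5 endothelial markers to between 0.488 and 11.7 CPM, highest in replicate 1 of the KO glands of week 10. The 7 macrophage markers summed to between 59.2 and 417 CPM, of which Cd14 alone held 52.6 to 411 CPM, while Adgre1, which encodes F4/80, was between 0 and 3.56 CPM. Adgre1, C1qa (2.59 CPM), Cd68 (5.44), Itgam (2.3) and Mrc1 (3.36) were highest in replicate 2 of the WT glands of week 8. Csf1r and Cd14 were highest in tumors of week 10. The 6 fibroblast markers summed to between 10.5 and 729 CPM, with the next highest sum, 218 CPM, in replicate 2 of the WT glands of week 6. The part of these cells in the levels was not tested. In 10 of the 13 conditions the library with the lowest rRNA share had the highest level of the members, and in 8 of 13 the deepest library had it. With 2 or 3 libraries a condition, some of these matches come by chance. The 2 counts are not separate, as the deepest library was often the one with the lowest rRNA share. With the rRNA share as a covariate in edgeR, the median log2 fold change of the members kept its sign in the 6 comparisons of tumors with glands, and it was 0.37 in place of 1.31 between WT and KO glands. The part of depth was not tested.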

How the data were processed

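RNAseq of 33 libraries was analysed. The authors aligned reads with HISAT to GRCm38, removed duplicates with Picard 1.128 and deposited raw counts per gene, made with HTSeq. Their second deposited table holds a normalized signal, the counts divided by DESeq2 size factors, and was used only as another scale for library levels. The members and the other lists were chosen with earlier results of these data known. Of 55598 rows, 111 name no gene, hold 0.0778% of reads and were left out. Genes with at least 10 reads over all libraries were tested with edgeR 4.0.16 (R 4.3.3, TMM scaling, quasi-likelihood test, 14 conditions in 1 fit). Calls needed more than a 1.5 fold change together with p under 0.1 after Benjamini-Hochberg adjustment, the limits the study used. The test of any difference used the adjusted p alone. The SE is the log2 fold change over the root of F. Levels used a pseudocount of 0.5 CPM, which understates changes of low genes. A count of 0 allows 3 reads, for counting error only.

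Values in every library are given for members called in the most comparisons (up to 12), for the highest member of each role by median CPM, and for the 5 members with a library farthest from its condition's median. Isg15 was added after its values were seen. Alternatives were DESeq2 1.42.0, DESeq2 size factors, other filters, other sets of libraries, a replicate block, the rRNA share as a covariate, other pseudocounts and each of 32 replicates left out. In the last of these the dispersion trend of the whole fit was kept. Comparisons of the same genotype and age share gland or tumor libraries. Pthlh was not used to check the KO labels, since its gene-level count includes the exons that remain. The values of 1 gene of the receptor and signaling list are not reported here.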

Additional observations from a re-analysis of the deposited data

Results flagged for a closer look

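Each member was examined in WT glands, WT tumors, KO glands and KO tumors over all ages for a library that stands apart, by the gap of the highest or lowest library to the next as a share of the whole range. Of 176 such sets, 17 had a gap over the 95% limit for their size, and chance alone flags about 1 in 20. None of the 17 lay in KO libraries.

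In WT glands, replicate 1 of week 10 was the high library for 5 members, Mx1 (gap 0.689 of the range), Ifit3b (0.617), Eif2ak2 (0.568), Ddx58 (0.541) and Rsad2 (0.532). In WT tumors, replicate 3 of week 10 was the high library for 10 members. These were Ifi35 (0.644), Bst2 (0.587), Isg15 (0.554), Oas2 (0.531), Herc6 (0.529), Oas3 (0.528), Cmpk2 (0.525), Irgm1 (0.524), Igtp (0.516) and Eif2ak2 (0.502). Replicate 3 of the WT tumors of week 8 stood apart for Ifit3 (0.581). The WT tumor of week 12 was the low library for Gbp2 (0.508). The sets hold libraries of several ages, so a gap can lie between ages as well as between replicates.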

How the results depend on the processing

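Of the counts of members called, 403 stayed within 1.5 times the main count under an alternative and 66 did not, and the cause was not tested. With only the libraries of the comparison in the fit, tumors against glands gave 5 in WT mice of week 6, 3 at week 10, and 1 and 0 in KO mice of weeks 10 and 12, and WT against KO glands gave 1. Without a filter on low counts, the counts were 11 and 22 in WT mice of weeks 8 and 10, 12, 1 and 9 in KO mice of weeks 8, 10 and 12, 31 for glands, 12 for the difference of the tumor effect and 4 for WT tumors of week 10 against week 6. Of all genes, that fit called 7.46% and 5.41% in those WT mice, 3.26%, 5.43% and 5.39% in those KO mice, 1.46% for glands, 0.279% for the difference and 0.889% between the stages. DESeq2 gave 9 and 6 in KO mice of weeks 8 and 12 and 22 for glands (4.64%, 7.95% and 2.03% of all genes). With the rRNA share as a covariate the counts were 1, 3 and 2 in KO mice of weeks 8, 10 and 12 and 0 for glands. The filterByExpr filter gave 2 in KO mice of week 12 and 4 for glands. The shares of all genes are not given for this filter, the covariate, the replicate block and the fits of own libraries. Their counts therefore cannot be set against all genes.

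With the replicate number as a block, the count was 1 in KO mice of week 10 and 0 at week 12, and the other counts stayed within 1.5 times. Over 171 pairs of same-numbered libraries the correlations of their deviations ran from -0.75 to 0.63, with 63 over 0.1. Every correlation was over 0.1 for 1 of the 15 pairs of conditions that share 3 numbers, the KO tumors of weeks 8 and 10, and for 22 of the 63 that share 2. The titles give each library an identifying number of its own and state no animal or batch shared between conditions, so the replicate numbers were taken as names.

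Leaving out 1 replicate gave 0 to 2 called members in WT mice of week 6, and between 1 and 6 in those of week 8. The range in WT mice of week 10 was 0 to 11. It gave 0 to 1 in KO mice of weeks 8 and 10 and 0 to 3 at week 12, 0 to 3 for WT against KO tumors, 0 to 12 for glands, 0 to 0 for the difference of the tumor effect and for WT tumors of week 10 against week 6, 0 to 1 for KO tumors of week 12 against week 8 and 34 to 44 for any difference. Mx1 in WT mice of week 10 ran from -4.26 to 0.22, the value without replicate 1 of the glands, and was the single fold change of a called member to reverse. The calls of Ifi27l2a, Ifit2, Ifit3, Ifit3b and, in WT mice, Ifitm3 stood under the 7 other fits that keep all libraries of the comparison, and that of Irgm1 under 4. Each of them was lost when some single library was left out, some with their fold change and some without it. Without replicate 2 of the glands, Ifit2 went from 1.52 to 1.5 at week 6 and from 1.69 to 1.48 at week 8, and Ifi27l2a from -4.37 to -1.83 and from -6.02 to -1.64. Without replicate 1 of the glands of week 10, Ifit3 went from -3.61 to -1.92 and Ifit3b from -4.16 to -1.73. Under both other pseudocounts and the authors' scale the highest and the lowest library level stayed in the same libraries, and both moved by less than the SD within conditions pooled over all conditions, 0.67. With a pseudocount of 0.1 the lowest moved from -1.10 to -1.54, which is more than its distance from the other gland of its condition. With 2 or 3 libraries a condition and an SD within conditions of 0.80 (log2) for the median member, a member that was not called is not shown to be equal between groups.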
